A study of Homo sapiens with 6 samples.

Results

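The 14-3-3 family was taken as the 7 human genes that encode its proteins, YWHAB, YWHAE, YWHAG, YWHAH, YWHAQ, YWHAZ and SFN, chosen by gene symbol, and all 7 were found among the 20461 Ensembl entries of the deposited tables. RNA sequencing measured their transcripts in ARPE-19, a line of human cells from the retinal pigment epithelium, carrying either a control lentivirus or a PDZK1 overexpression lentivirus, with 3 libraries in each group. In both groups the cells were transduced for 48 h at a multiplicity of infection of 10, selected with 4 µg/ml puromycin and then held in 37.5 mM glucose for 48 h. The promoter that drives PDZK1 in the vector is not given in the sources used here. Nothing in the labels says that the 3 libraries of a group came from separate cultures, so the p-values measure only the spread between these libraries, which may be technical.

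The 14-3-3 proteins are small, acidic adaptors that work as homodimers or heterodimers and bind partner proteins at phosphorylated serine or threonine residues. By binding, they hold a client in the cytoplasm, mask or stabilise an active state, or bridge separate proteins, and their clients include protein kinases, FOXO and YAP transcription regulators, CDC25 phosphatases and the mTOR pathway proteins TSC2, PRAS40 and raptor. The genes name the beta (YWHAB), epsilon (YWHAE), gamma (YWHAG), eta (YWHAH), theta or tau (YWHAQ), zeta (YWHAZ) and sigma (SFN) isoforms. The study was concerned with 14-3-3ε as a binding partner of PDZK1, a scaffold protein with PDZ domains, and the question put to these libraries is how abundant each isoform's transcript was and whether it differed with PDZK1 overexpression.

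Libraries held between 27970618 and 32804567 counts, of which the 7 genes together took 0.352% to 0.355% in control and 0.344% to 0.345% in PDZK1 overexpression. PDZK1 itself had 18 to 23 counts in the control libraries against 2541 to 3020 under overexpression, so each library matched its label. The pigment epithelium markers RPE65 and TTR were at 0 counts in all 6 libraries and TYR had at most 2. By contrast, RLBP1, PMEL and TYRP1 were detected in all of them at 30 to 166 counts, as were BEST1, MITF and OTX2 at higher counts. The general epithelial genes KRT8, KRT18 and TJP1 were also detected in all 6 libraries. Summed over 9 pigment epithelium markers, the level was 108 to 137 CPM (counts scaled to a common library size by TMM) in control and 107 to 469 CPM in PDZK1 overexpression. The upper value came from BEST1 in PDZK1 replicate 1, with 11459 counts against only 124 to 181 in the other libraries. Without BEST1 the sums were 103 to 132 CPM and 103 to 118 CPM, and the part of this in any 14-3-3 result was not tested. Over 4 markers of blood, vessel, photoreceptor and glial cells, the sum stayed between 0 and 0.189 CPM.

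The genes lie on separate chromosomes, as placed by GENCODE release 29 on GRCh38. YWHAE (ENSG00000108953) spans chr17:1344272-1400378 on the minus strand, and an antisense gene, AC032044.2, overlaps it. YWHAQ is at chr2:9583972-9631014 and YWHAG at chr7:76326794-76359031, both on the minus strand. YWHAB is at chr20:44885676-44908532, YWHAH at chr22:31944461-31957603 and SFN at chr1:26863138-26864457, all on the plus strand. YWHAH is overlapped by C22orf24 on the opposite strand and by Z82190.2 on its own strand. YWHAZ, whose place is given with its values, has the most numbered pseudogenes of the family, 8, followed by YWHAE with 6, YWHAQ with 4 and YWHAB with 2. None of these pseudogenes has a row in the count table, and the overlapping genes named here have none either.

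Because the proteins are alike, the separation of their reads was examined first. Identity between the translated coding sequences was counted after alignment, as a percentage of the residues of the longer protein. YWHAB and YWHAZ were the closest pair at 87.0%, with YWHAG and YWHAH next at 86.6%. YWHAE was the most distant, at 58.8% (SFN) to 65.5% (YWHAZ) identity to the others. The 33 bases below encode the conserved 14-3-3 signature, the same 11 residues in each of the 6 genes shown, and they are given because they show how far the coding DNA differs even where the protein does not. They are written 5′ to 3′ from the GENCODE coding sequences, starting at residue 41 to 43 of the protein, and capitals mark bases that differ from YWHAE.
YWHAE: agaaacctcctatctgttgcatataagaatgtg
YWHAB: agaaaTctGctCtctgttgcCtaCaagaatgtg
YWHAH: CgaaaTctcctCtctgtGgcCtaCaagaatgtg
SFN: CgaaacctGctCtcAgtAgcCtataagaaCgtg
YWHAG: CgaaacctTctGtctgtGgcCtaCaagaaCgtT
YWHAQ: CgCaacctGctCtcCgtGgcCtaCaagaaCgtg
The number of differing bases was 5 for YWHAB, 6 for YWHAH, 7 for SFN, 8 for YWHAG and 9 for YWHAQ. Over whole transcripts, no stretch of 50 bases was shared between any of the 7 members. With other annotated genes, stretches of that length were shared by 6.77% of the YWHAZ transcript sequence, spread over 206 genes, by 2.88% of YWHAE, 2.24% of YWHAH and 1.73% of YWHAQ, and by none of YWHAB, YWHAG or SFN. Reads could therefore be split between a 14-3-3 gene and another locus for YWHAZ most of all, and how the counting treated such reads is not given in the sources used here.

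Levels between genes are compared in FPKM, the deposited fragment counts scaled to transcript length and to the mapped fragments of a library. Of the 7 isoforms 6 were abundant and SFN was near the limit of detection. YWHAZ had 447.5, 454.1 and 512.2 FPKM in control and 466.1, 450 and 491.7 FPKM in PDZK1 overexpression. YWHAQ had 267.7, 272 and 284.1 FPKM in control and 258.6, 258.4 and 259.8 FPKM in PDZK1 overexpression. YWHAE had 228.1, 235.8 and 238.9 FPKM in control and 228.2, 226.5 and 233.5 FPKM in PDZK1 overexpression. These are high levels for any gene, since 0.711%, 1.43% and 1.6% of the 13645 genes tested had a higher mean FPKM than YWHAZ, YWHAQ and YWHAE. YWHAB had 122.4, 125.9 and 116.1 FPKM in control and 122.7, 121 and 117.3 FPKM in PDZK1 overexpression. YWHAG had 107, 106.8 and 98.89 FPKM in control and 104.3, 99.53 and 103.2 FPKM in PDZK1 overexpression. YWHAH, the least abundant of the 6, had 81.33, 81.51 and 79.96 FPKM in control and 74.84, 80.48 and 76.48 FPKM in PDZK1 overexpression. Its level was still exceeded by only 5.89% of the genes tested.

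**Figure D1:**
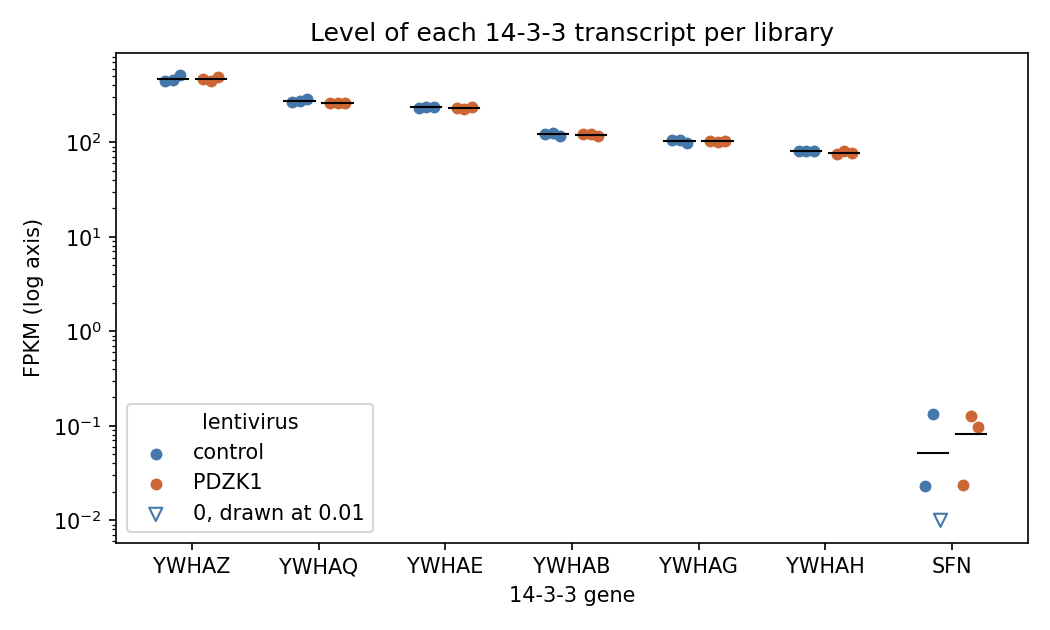
FPKM of each 14-3-3 gene in each library (log axis), with control in blue, PDZK1 overexpression in orange and a black line at each group mean of 3 libraries. YWHAZ lies between 447.5 and 512.2 FPKM, the other 5 abundant members between 74.84 and 284.1 FPKM, and SFN at or under 0.132 FPKM, with the control library listed at 0 drawn as an open triangle.

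The order YWHAZ, YWHAQ, YWHAE, YWHAB, YWHAG, YWHAH, SFN was the same in all 6 libraries, and no neighbours in it overlapped over the libraries. The mean of YWHAZ was 1.76 times that of YWHAQ, and YWHAE stood 1.92 times above YWHAB. The steps from YWHAQ to YWHAE (1.15 times), from YWHAB to YWHAG (1.17 times) and from YWHAG to YWHAH (1.31 times) were smaller. The order rests on the transcript lengths used by the authors. When CPM were divided by the length of all annotated exons of a gene instead, YWHAQ came first with 31.2% of the family, ahead of YWHAZ with 22%, YWHAE with 17.2%, YWHAG with 14.8%, YWHAH with 8.08% and YWHAB with 6.75%. YWHAE held the third place by both measures.

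SFN, the sigma isoform, is known from stratified epithelia. It had 2, 6 and 0 counts in control and 2, 6 and 5 with PDZK1 overexpression. The groups overlapped, and the floor of 3 counts, up to which a library at 0 cannot be told from a low level, corresponded to 0.0915 to 0.109 CPM per library. SFN did not pass the filter on low counts and was not tested, no fold change is given for it, and 99.25% of the genes tested had a higher mean FPKM.

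The start regions of YWHAE and SFN are given because they belong to an abundant member and to the one near the detection limit. Each covers 300 bases ending 50 bases after the RefSeq transcription start (GRCh38.p14), written 5′ to 3′ along the gene's strand with CpG dinucleotides (the letters CG, the same on both strands) in capitals. The YWHAE window is chr17:1400173-1400472 on the minus strand and the SFN window is chr1:26862899-26863198 on the plus strand. The GENCODE gene spans given above begin upstream of these RefSeq starts, so by that annotation more of each window, and most of that of YWHAE, lies inside the gene.
YWHAE: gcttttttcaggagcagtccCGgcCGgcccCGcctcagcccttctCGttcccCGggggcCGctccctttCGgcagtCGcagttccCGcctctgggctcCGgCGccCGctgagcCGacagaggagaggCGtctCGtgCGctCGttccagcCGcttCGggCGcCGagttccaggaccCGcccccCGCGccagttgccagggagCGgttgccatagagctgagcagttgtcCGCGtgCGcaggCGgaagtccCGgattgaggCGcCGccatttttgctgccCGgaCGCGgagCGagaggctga
SFN: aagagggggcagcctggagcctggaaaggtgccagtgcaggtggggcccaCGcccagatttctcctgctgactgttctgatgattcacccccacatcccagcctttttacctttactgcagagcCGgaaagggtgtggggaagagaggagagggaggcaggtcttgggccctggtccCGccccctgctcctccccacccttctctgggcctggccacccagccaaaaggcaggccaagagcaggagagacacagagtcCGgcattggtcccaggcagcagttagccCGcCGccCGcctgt
The YWHAE window held 36 CpG, a number reached by 12.7% of 35116 promoters of the same length, and the SFN window held 7, reached by 63.2%. Windows of the other members in the table held 29 (YWHAB), 32 (YWHAG), 34 (YWHAQ) and 44 (YWHAH), reached by 24.2%, 18.9%, 15.6% and 4.19% of promoters. All 5 abundant members with a window thus had at least 4 times the CpG of SFN. No window was available here for YWHAZ. These counts describe the letters in the windows and carry no measure of methylation or binding.

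Within the family, the mean share of each member differed between the groups by at most 0.747 percentage points with all 6 libraries. This limit rests on single libraries, since the difference for YWHAZ, 0.71 with all of them, was 1.67 without control replicate 3 and 1.16 without PDZK1 replicate 2. YWHAZ made up 36.95% of the summed FPKM on average over the 6 libraries, YWHAQ 20.97%, YWHAE 18.23%, YWHAB 9.51%, YWHAG 8.12%, YWHAH 6.22% and SFN 0.00533%. The share of YWHAQ was 21.35%, 21.31% and 21.36% in control and 20.61%, 20.9% and 20.26% in PDZK1 overexpression. The groups did not overlap, with means of 21.3% ± 0.0259 and 20.6% ± 0.321 (SD, n = 3), but the exact permutation test (two-sided) gave p = 0.1, the smallest that 3 against 3 libraries allow, and 0.7 after Benjamini-Hochberg adjustment over 7 shares. The share of YWHAE was 18.2% ± 0.256 in control and 18.2% ± 0.0741 in PDZK1 overexpression (SD, n = 3, exact permutation p = 0.9, adjusted 1). For the other 5 members the groups overlapped and the adjusted exact p was 1.

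In the comparison of PDZK1 overexpression with control, 0 of the 6 tested members passed an adjusted p under 0.05 in edgeR's quasi-likelihood test with Benjamini-Hochberg adjustment, against 3.83% of all genes tested. The count was also 0 with DESeq2, with limma-voom and with limma on log2 FPKM, and 1 of the 6 (YWHAQ) had an unadjusted p under 0.05, against 17.5% of all genes. In bulk RNA, fewer cells of a type and less RNA per cell cannot be told apart. All 6 estimates were below 0, with a median log2 fold change of -0.05 against 0 over all genes tested (-0.0003). The CPM of 2 members, YWHAQ and YWHAZ, did not overlap between the groups and were lower with PDZK1, as were those of 12.3% of all genes. Estimates for the members were more precise than for most genes, with a median standard error of 0.037 on the log2 scale against 0.075.

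YWHAE, which encodes the isoform that the study tied to PDZK1, had 487.1, 504.1 and 501.1 CPM in control and 495.5, 493.5 and 487.5 CPM in PDZK1 overexpression. The groups overlapped, and the means were 498 ± 9.07 and 492 ± 4.2 CPM (SD, n = 3). This gave a log2 fold change of -0.02 with a standard error of 0.0335 and a 95% interval of -0.09 to 0.06 (edgeR adjusted p = 0.863), which as a fold runs from 0.939 to 1.04. A change at least as large in either direction was estimated for 89.6% of the genes tested. When libraries were scaled by their total counts alone, the estimate was 0.003 with an adjusted p of 0.981, so its sign is not determined. Changes within these bounds could not be told from none with 3 libraries a group, and the data hold no measure of 14-3-3ε protein, its phosphorylation or its binding.

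YWHAQ, which encodes the theta isoform first described in T cells, had the lowest estimate of the family. It had 639.3, 651.7 and 680.9 CPM in control and 613.2, 615.3 and 614 CPM in PDZK1 overexpression. All 3 PDZK1 libraries lay below all control libraries, and the means were 657 ± 21.4 and 614 ± 1.07 CPM (SD, n = 3). The log2 fold change of -0.10 (SE 0.0367, 95% interval -0.18 to -0.02) had an unadjusted edgeR p of 0.0243 and did not pass adjustment (adjusted p = 0.198). In FPKM the groups did not overlap either, at 267.7 to 284.1 in control and 258.4 to 259.8 with PDZK1.

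YWHAZ, the zeta isoform and the most abundant, lies at chr8:100916525-100953388 on the minus strand. It had 1435, 1429 and 1478 CPM in control and 1370, 1387 and 1384 CPM in PDZK1 overexpression. These groups did not overlap either, with means of 1447 ± 26.7 and 1380 ± 8.94 CPM (SD, n = 3), for a log2 fold change of -0.07 (SE 0.0356, 95% interval -0.15 to 0.01, edgeR adjusted p = 0.369). In FPKM, by contrast, the groups overlapped. The ratio of counts to FPKM, which for a gene of fixed length is constant once depth is taken out, was 106.5%, 104.1% and 95.35% of its mean in the 3 control libraries and 98.11%, 102.4% and 94.08% in those with PDZK1. Its highest value was 1.13 times its lowest, a span reached by 20.5% of 11250 genes, against 1.04 for the median gene, 1.045 for YWHAE and at most 1.01 for the other 4 tested members. Counts and FPKM of YWHAZ thus did not keep the same ratio across libraries, and the cause was not tested.

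YWHAH, which encodes the eta isoform, had 152.9, 154.3 and 150.9 CPM in control and 139.9, 151 and 143.1 CPM in PDZK1 overexpression. PDZK1 replicate 2 reached just into the control range, so the groups overlapped, for a log2 fold change of -0.08 (SE 0.0371, 95% interval -0.16 to 0.01, edgeR adjusted p = 0.318). YWHAG, the gamma isoform, had 430.8, 431.7 and 400.1 CPM in control and 417.8, 400.5 and 412.7 CPM in PDZK1 overexpression, with a log2 fold change of -0.04 (SE 0.0407, edgeR adjusted p = 0.714). YWHAB, the beta isoform, had 407.7, 416.9 and 389.1 CPM in control and 404.2, 400.6 and 389.5 CPM in PDZK1 overexpression, with a log2 fold change of -0.02 (SE 0.0379, edgeR adjusted p = 0.814). For both of these genes control replicate 3 was the lowest library and the PDZK1 libraries lay within the control range. Over the 6 tested members the lowest end of a 95% interval was 0.883-fold (YWHAQ) and the highest 1.04-fold (YWHAB). These are separate intervals, not adjusted for the number of genes, and give no joint bound. They rest on the TMM scaling and on the spread between these libraries, which may be technical.

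**Figure D2:**
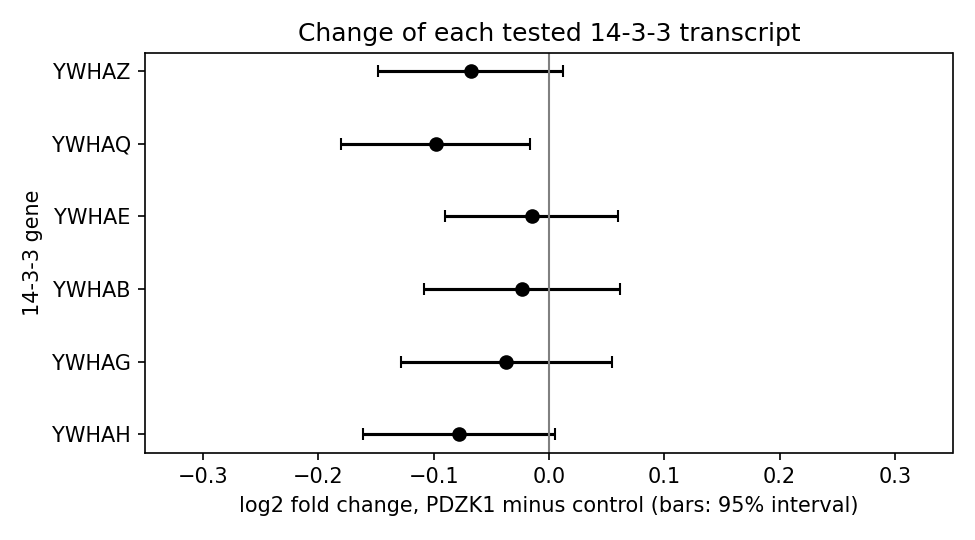
Log2 fold change of the 6 tested 14-3-3 genes, PDZK1 overexpression minus control, from edgeR on 3 libraries per group, with bars for the 95% interval. The points run from -0.10 for YWHAQ to -0.02 for YWHAE, and the interval of YWHAQ alone stays below 0 before adjustment.

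The summed level of the family depended on the unit. As FPKM it was 1254, 1276 and 1330 in control and 1255, 1236 and 1282 in PDZK1 overexpression, a difference of means of -2.27% with overlapping groups (exact permutation test, two-sided, p = 0.5), and without control replicate 3 it was -0.598%. As CPM it was 3553, 3588 and 3600 in control and 3441, 3448 and 3431 in PDZK1 overexpression, with means of 3580 ± 24.5 and 3440 ± 8.79 (SD, n = 3). All 3 PDZK1 libraries were lower in CPM, a change of -3.92% relative to the control mean, with an exact permutation p of 0.1, the smallest possible here. With YWHAZ left out, an alternative chosen after seeing the data, the FPKM sums were 806.6, 822.1 and 818 in control and 788.6, 786.1 and 790.4 in PDZK1 overexpression. These did not overlap either and gave a change of -3.34% with an exact permutation p of 0.1.

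**Figure D3:**
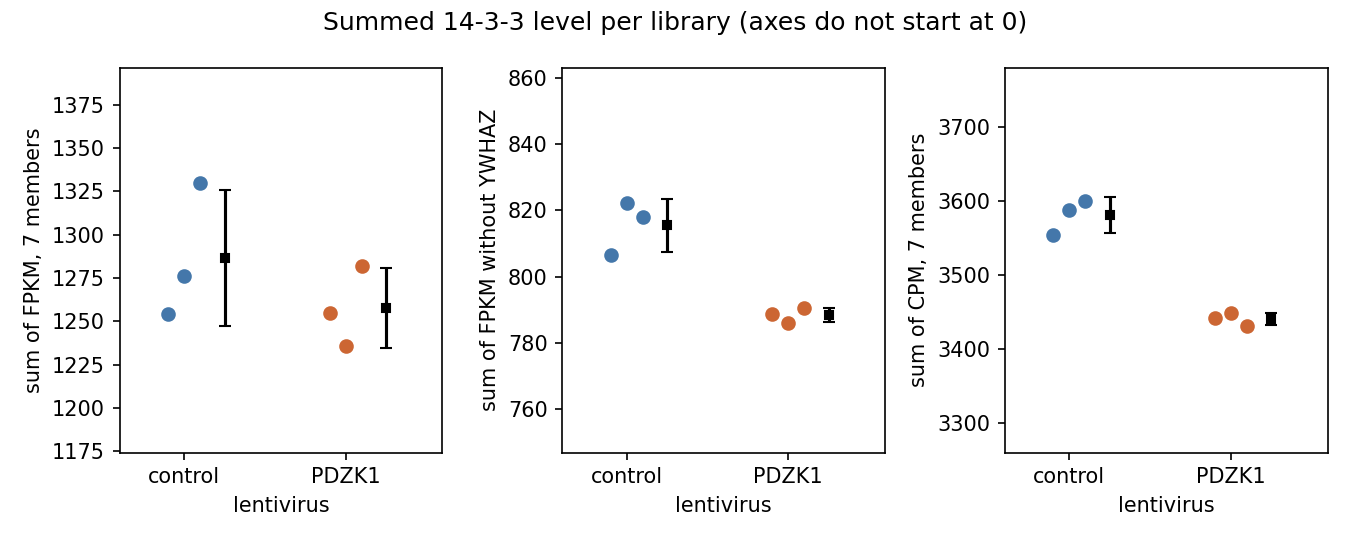
Summed level of the 14-3-3 genes in each library as FPKM (left), as FPKM without YWHAZ (middle) and as CPM (right), with control in blue, PDZK1 overexpression in orange, and black squares and bars for the mean and SD of 3 libraries. The groups overlap on the left (1236 to 1330) and do not overlap in the middle and on the right, where the CPM sums are 3431 to 3448 against 3553 to 3600.

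For each member, the nearest genes by profile over the 6 libraries were found by the root mean square difference of centred log2 CPM. Candidates were 11094 genes outside the family, so nearness between members was not examined. For YWHAE the nearest were ITFG1 (0.006), FAM50A (0.01) and NSD3 (0.011), against a median of 0.082 over all candidates. The nearest gene was CBX5 for YWHAZ (0.006), OPA1 for YWHAQ (0.009), RCN2 for YWHAB (0.009), MYH9 for YWHAG (0.007) and KLF7 for YWHAH (0.011). The root mean square differences in brackets are a description over 6 libraries that share 1 scaling. With so small a spread, many genes lie close.

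The transcripts of proteins that 14-3-3 binds, and of kinases that phosphorylate the sites it recognises, were followed in 10 lists of 65 genes, all of which were tested. Of these, 1 passed the threshold as higher with PDZK1, 0 passed as lower, and 10 had an unadjusted p under 0.05 by edgeR. The log2 fold changes were above 0 for 30 genes and below 0 for 35, with a median of -0.004. Against 3.83% of all genes called and 17.5% with an unadjusted p under 0.05, neither count stood above the background.

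The gene that passed was IRS2, an adaptor that carries signals from the insulin receptor and binds 14-3-3 when phosphorylated on serine. It had 126.7, 120.7 and 126.7 CPM in control and 135.1, 142.2 and 145.9 CPM in PDZK1 overexpression. The groups did not overlap, for a log2 fold change of 0.18 (SE 0.0397, 95% interval 0.09 to 0.27, edgeR adjusted p = 0.0393). With 5 of the 6 libraries the call was kept once, without control replicate 3 (edgeR adjusted p = 0.0239), and otherwise lost, with adjusted p up to 0.187. In the same list of insulin signalling, TBC1D4, the Rab regulator of GLUT4 transport, had a log2 fold change of 0.29 with an edgeR adjusted p of 0.0673.

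Among the 4 mTOR and autophagy clients none passed. TSC2, the subunit of the complex that restrains mTORC1, had a log2 fold change of -0.02 (edgeR adjusted p = 0.85). AKT1S1, which encodes PRAS40, was at 0 (-0.001, adjusted p = 0.997), and RPTOR, which encodes raptor, at -0.003 (adjusted p = 0.988). ULK1, the kinase that starts autophagy, had 0.09 (adjusted p = 0.527). MTOR itself, which is no client in these lists, had 85.8 ± 4.81 CPM in control and 71.1 ± 1.93 CPM in PDZK1 overexpression (SD, n = 3), with a log2 fold change of -0.27 (edgeR adjusted p = 0.0195). That call too was kept only without control replicate 3 when 1 library was dropped, and the highest adjusted p was then 0.106. It was also lost in the 3 fits to FPKM (limma adjusted p of 0.12, 0.118 and 0.167) and with the replicate number as a block (edgeR adjusted p = 0.0552).

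In the remaining lists no gene passed, and genes with the smallest p of a list are given. The kinase AKT2, which phosphorylates many sites that 14-3-3 recognises, had a log2 fold change of -0.15 (edgeR adjusted p = 0.0631). The cell cycle phosphatases CDC25A and CDC25C, which 14-3-3 binds, had -0.20 (adjusted p = 0.345) and -0.28 (0.401). The kinase BRAF, whose closed and active states both contain a 14-3-3 dimer, had -0.04 (adjusted p = 0.817). The death-signalling kinase MAP3K5 had 0.14 (adjusted p = 0.529) and the transcription factor FOXO3 had -0.06 (0.459). The Hippo effectors WWTR1, which encodes TAZ, and YAP1 had -0.06 (adjusted p = 0.588) and 0.004 (0.974). The CREB coactivator CRTC2 and the deacetylase HDAC5 had 0.13 (adjusted p = 0.204) and 0.14 (0.225). The cofilin phosphatase SSH1 and the polarity protein PARD3 had 0.10 (adjusted p = 0.128) and 0.08, and MDM4, which binds 14-3-3 when phosphorylated, had 0.05 (0.697).

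**Figure D4:**
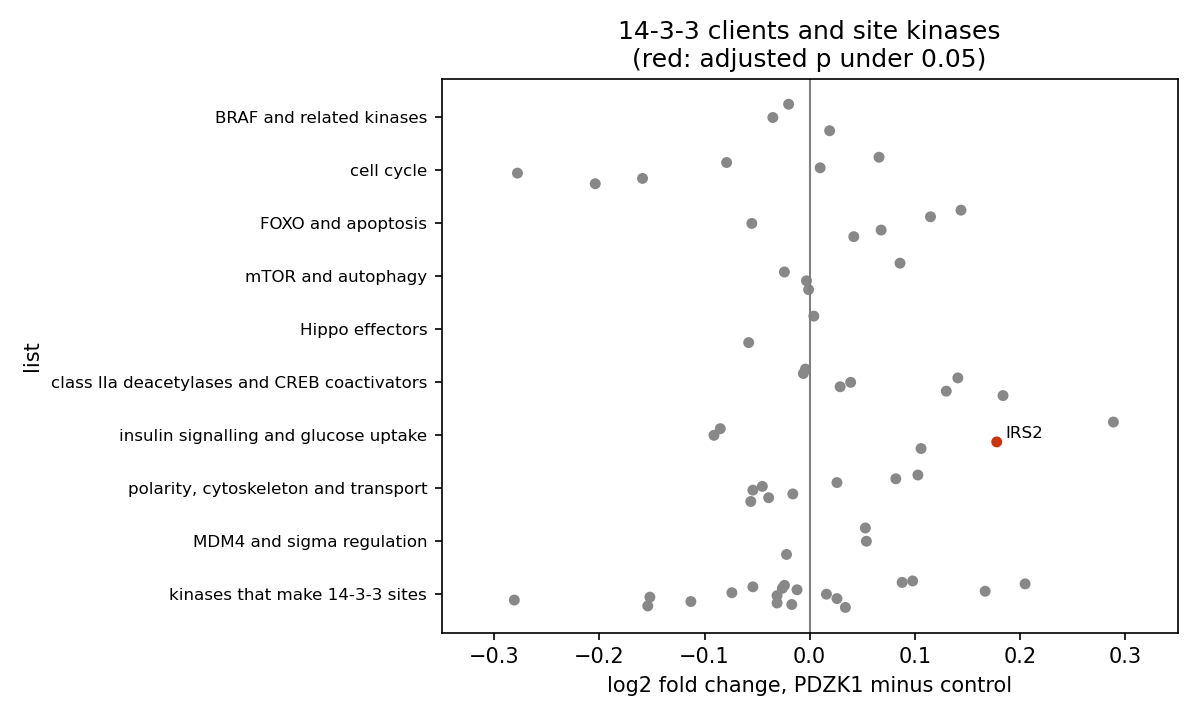
Log2 fold change, PDZK1 overexpression minus control, of 62 of the 65 genes for 14-3-3 clients and for kinases that make its sites, in 10 lists, with one point per gene spread vertically within a list for legibility. IRS2 at 0.18 is the only point in red (edgeR adjusted p under 0.05), and of the points drawn 29 lie above 0 and 33 below.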

How the data were processed

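RNA sequencing was done on 3 control and 3 PDZK1 overexpression libraries of ARPE-19 cells, prepared from total RNA with a VAHTS Universal kit. The submitters' processing notes name fastp 0.20.1, HISAT2 2.2.1 and GRCh38, and the counting program, annotation and strandedness are not given in the sources used here. The authors deposited estimated counts per gene as whole numbers, which were used as they stood, and FPKM, scaled by the authors for transcript length and depth. Reads from a gene and its antisense partner cannot be told apart where the counting ignored strand. Of the columns of per-sample values, 3 in either table matched no sample and were not used. Each table held 21314 entries, and 853 assembled loci were left out, with 0.519% to 0.536% of the counts.

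Genes passing filterByExpr (13645) were scaled by TMM and tested with edgeR 4.0.16 in R 4.3.3 (robust quasi-likelihood test, no covariates, Benjamini-Hochberg adjustment over all of them, threshold 0.05). CPM used the TMM-scaled library sizes. Single values such as shares and sums were compared by exact permutation tests, two-sided. Floors of 3 counts cover counting error only. Alternatives were DESeq2 1.42.0, limma 3.58.1 (voom, or a trend on log2 of FPKM plus 1 or 0.1 at a mean of at least 0.5, which understates changes of low genes), other scalings and filters, a replicate block, and each library left out. The scripts were tested on simulated counts. Positions are those of GENCODE release 29, of which 20229 entries matched, and promoter windows those of RefSeq.

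The members, the lists of clients and markers and the rules were chosen with earlier results of these data known. Named genes were the 7 members, PDZK1, MTOR, list genes past the threshold, the 2 of each list with the smallest p (3 genes that the rule names are not reported here), the mTOR and autophagy list, and the nearest genes by profile (3 for YWHAE, 1 for each other tested member, among genes with a mean of at least 5 CPM). Antisense and overlapping genes, pseudogenes and markers were named for what the annotation or marker lists hold. BEST1 was singled out after its values were seen.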

Additional observations from a re-analysis of the deposited data

How the results depend on the processing

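The number of 14-3-3 genes past the threshold was 0 under all 19 alternatives. Over 18 alternatives the log2 fold change stayed below 0 for YWHAQ (-0.12 to -0.07), YWHAZ (-0.08 to -0.004), YWHAH (-0.11 to -0.05), YWHAG (-0.07 to -0.02) and YWHAB (-0.05 to -0.002), and for YWHAE in all but one (-0.03 to 0.003, with 0.003 under library totals only). The members' median was -0.03 with log2 FPKM (-0.028 at a pseudocount of 1 and of 0.1, -0.026 without the filter), -0.034 with library totals only and -0.035 with genes of at least 1 count, where SFN was included. The number of clients past the threshold was 0 instead of 1 with limma-voom, the 3 fits to FPKM, the fit that was not robust, the replicate block and an added fold change above 1.5, and 0 to 1 when a library was left out. Over all genes the count of 522 became 793 with DESeq2, 184, 185 and 86 in the fits to FPKM (pseudocount 1, 0.1 and no filter), 171 with the added fold change, and 181 to 875 with a library left out, the last without control replicate 3. Same-numbered libraries of the groups did not deviate together (r of -0.0462, -0.056 and -0.143), so the numbers were not taken to pair samples, and the replicate block gave 163 genes. The differences in shares changed sign for YWHAZ when based on CPM per kb of exon (-0.101 percentage points) or on CPM (-0.291), and, with a library left out, ran from -0.239 to 0.335 for YWHAB, from -0.0906 to 0.165 for YWHAE, and from -0.314 to 0.235 for YWHAG. That of YWHAZ kept its sign with a library left out, at 0.186 to 1.67. The causes of these differences were not tested. SFN had 0 to 6 counts per library, at or under the floor of 3 counts in 3 of the 6, so no fold change was taken from it.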
